A study of Mus musculus with 6 samples.

Results

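The enzymes that add acetyl groups to histones, the enzymes that remove them and the proteins that read them were examined in CH12F3-2A, a line derived from a mouse B cell lymphoma whose cells switch from IgM to IgA after stimulation. The set held 42 genes taken by name: acetyltransferases, subunits of their complexes, zinc-dependent histone deacetylases (HDACs), NAD-dependent deacetylases (sirtuins), corepressor subunits and bromodomain proteins. Probes were named for 39 of the 42, each by 1 probe, among 15224 genes tested. Hdac1, Hdac8 and Tada3 had no probe under their current or older names and were not analysed here. The samples were 3 of cells given siRNA against Spt6 (siSpt6) and 3 of cells given control siRNA (siControl), both introduced by electroporation. All 6 samples received CIT, which is CD40 ligand, interleukin 4 and TGF-beta, 24 h after the siRNA, and RNA was taken after 24 h of CIT. Spt6 is a histone chaperone of elongating RNA polymerase II, and the study concerned how it bears on H3K4 trimethylation and the targets of AID, the deaminase that starts class switching. Cells were treated transiently and come from 1 line, and nothing in the labels ties replicates to separate cultures. Each p-value therefore refers to the spread between these samples alone, and part or all of that spread may be technical. The labels give no batch. The sample numbers of siControl and siSpt6 lie in separate ranges, consecutive for siSpt6 and spaced for siControl. A difference in handling between the groups could not be told apart from the siRNA.

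Acetylation of the lysines in histone tails loosens the hold of the tail on DNA and makes a docking site for bromodomains. Acetyltransferases work inside large complexes that carry them to promoters and enhancers; SAGA and ATAC hold GCN5 or PCAF, and the MYST enzymes TIP60, MOZ, MORF, HBO1 and MOF each have complexes of their own. Class I HDACs act within the SIN3, NuRD, NCoR and CoREST corepressors, class IIa HDACs shuttle between cytoplasm and nucleus, and sirtuins consume NAD. In B cells, acetylated histones mark the switch regions that are transcribed before class switching.

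Kat2a and Tada2a were lower in siSpt6 cells and no member passed the test as higher. Kat2a encodes GCN5, the acetyltransferase of SAGA and ATAC, and Tada2a encodes ADA2A, the adaptor that binds GCN5 in ATAC. A gene was called when its limma p, with Benjamini-Hochberg adjustment across the 21584 probes tested, was under 0.05. By that rule 2 of 39 members (5.13%) were called, 0 higher and 2 lower, against 16.3% of all tested probes (7.43% higher and 8.9% lower). With 1 probe per named gene the background was 17% (7.4% higher and 9.65% lower). Of tested probes at or above the median level 23.4% were called (8.35% higher and 15% lower), and 31 of the 39 members, both called ones among them, lay at or above that level. At an unadjusted p under 0.05 there were 10 members, 2 higher and 8 lower, while 30.3% of all tested probes passed the same mark. The count of lower members was 1 without siSpt6 replicate 2 and 4 with the trend and robust options of limma (Kat7 and Hdac10 added), where 21.2% of all probes were called. In a fit of bright probes alone 7 of 31 members (22.6%) were called, against 36.8% of those probes (13.5% higher and 23.3% lower). There Sirt4 and Sirt5 were higher, and Kat2a, Tada2a, Kat7, Hdac10 and Brd8 were lower. The median log2 difference of the members was -0.02, against 0.01 for all tested probes and -0.07 for probes at or above the median level. It was 0.063 after quantile normalization, 0.040 after cyclic loess and 0.052 without siSpt6 replicate 2, so its sign was not settled.

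**Figure D1:**
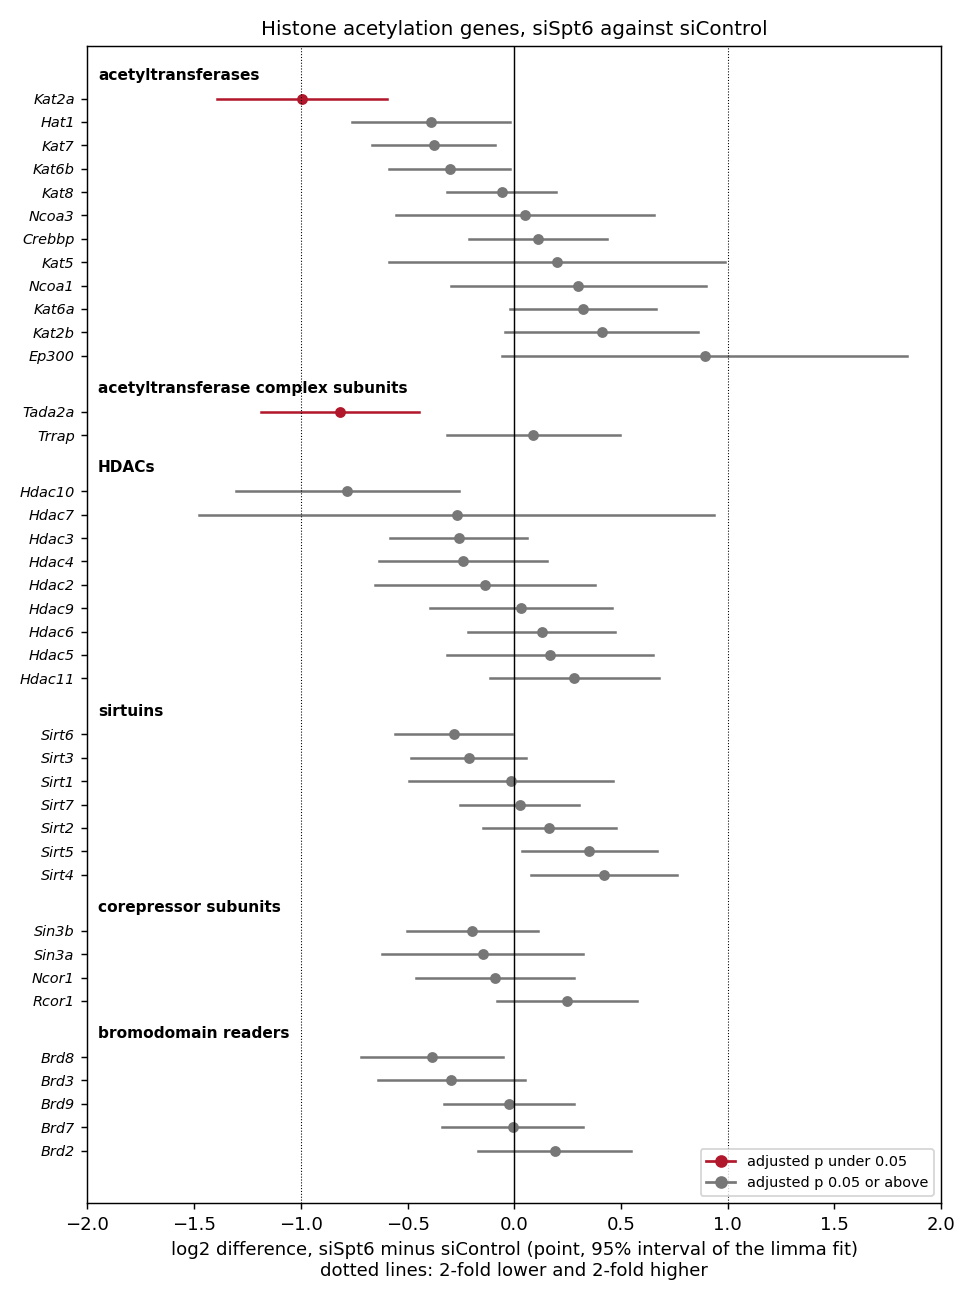
Log2 difference, siSpt6 minus siControl, of each of the 39 measured members (point) with the 95% interval of the limma fit (line), grouped by role; n = 3 arrays per group. Kat2a (-0.996) and Tada2a (-0.81) are the members with an adjusted p under 0.05, and 34 of 39 intervals lie between the dotted lines at 2-fold lower and 2-fold higher.

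The start regions of the called genes are shown because these are the members whose level differed. Both sequences are RefSeq's for the assembly GRCm38.p6, 250 bases before to 50 bases after the annotated start, on the minus strand of chromosome 11 and written 5′ to 3′ on the gene's strand. Tada2a lies at chr11:84129519-84129818 and Kat2a at chr11:100712418-100712717. Capitals mark matches to any of the 9 motif forms searched.
Tada2a: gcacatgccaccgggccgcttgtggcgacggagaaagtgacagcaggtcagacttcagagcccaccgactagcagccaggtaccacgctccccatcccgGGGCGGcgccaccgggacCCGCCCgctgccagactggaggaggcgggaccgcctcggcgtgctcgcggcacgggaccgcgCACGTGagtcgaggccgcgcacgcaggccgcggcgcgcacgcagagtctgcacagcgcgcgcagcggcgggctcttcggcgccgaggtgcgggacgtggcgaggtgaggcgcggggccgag
Kat2a: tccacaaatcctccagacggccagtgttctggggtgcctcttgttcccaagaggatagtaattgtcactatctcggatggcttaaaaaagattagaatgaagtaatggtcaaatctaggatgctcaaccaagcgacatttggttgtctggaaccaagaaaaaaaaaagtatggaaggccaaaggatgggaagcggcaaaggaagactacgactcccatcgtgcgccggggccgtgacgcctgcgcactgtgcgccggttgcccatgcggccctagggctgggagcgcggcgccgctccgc
The motifs, searched on both strands, were the GC box GGGCGG, the nuclear factor Y site CCAAT, the E-box CACGTG, the E2F forms TTTCCCGC and TTTGGCGC, the ETS form CCGGAAG, an NRF1 form, the CRE TGACGTCA and the ATF4 composite form TGATGNAA. Tada2a had 2 GC boxes, starting 151 and 133 bases before the start, and 1 E-box, 71 bases before it. None of the 9 forms was in the Kat2a window. Among all 32851 RefSeq promoters 35.7% held a GC box and 7.15% an E-box, and the matches in Tada2a did not overlap one another. Each annotated start was counted as its own window, also where windows of the same gene overlapped, as for Kat6b and Brd9. The promoters of 34 members (49 windows) held a GC box in 69.4%, CCAAT in 32.7% and the ETS form in 22.4%, against 35.7%, 37.4% and 8.86% of all promoters. They were also richer in G and C, with a median of 62.3% against 52.7% over all promoters, and the part of base composition in these shares was not tested.

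The level of Kat2a was 157, 206 and 234 on the siSpt6 arrays, against 377, 418 and 381 on the siControl arrays (intensity in arbitrary units, 1-colour arrays). Every siSpt6 value lay far below every siControl value. The means were 199 ± 38.5 in siSpt6 and 392 ± 22.8 in siControl (SD, n = 3 each), a ratio of 0.501. The log2 difference was -0.996 (SE 0.17, 95% interval -1.39 to -0.60, limma adjusted p = 0.00979). It kept its call under every alternative run, with a log2 difference of -1.12 to -0.84 and limma adjusted p of 0.0151 to 0.0360 when any 1 array was left out.

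Tada2a read 150.1, 143 and 172 on the siSpt6 arrays, against 238, 260.2 and 325 on the siControl arrays. The groups did not overlap, and the siControl values were the more spread. The means were 155 ± 14.8 in siSpt6 and 274 ± 45.1 in siControl (SD, n = 3 each), a ratio of 0.569. The log2 difference was -0.81 (SE 0.16, 95% interval -1.19 to -0.44, limma adjusted p = 0.0155). Without siSpt6 replicate 2 it was -0.76 with limma adjusted p = 0.0559, above the threshold, and the call held with any other single array left out. In the RefSeq annotation Acaca, the gene of acetyl-CoA carboxylase, starts head to head with Tada2a. Acaca, looked up after the call of Tada2a was known, averaged 325 ± 92.4 in siSpt6 and 532 ± 119 in siControl. Its log2 difference was -0.72 with limma adjusted p = 0.0901. Over 14 alternatives, bright probes alone aside, its limma adjusted p ran from 0.0207 (replicate block) to 0.217, and 4 of them passed the threshold.

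The other acetyltransferase genes did not pass the test, and those with groups that did not overlap lay on both sides. Kat7, which encodes HBO1, read 122, 105 and 126 in siSpt6, against 149, 148 and 160.4 in siControl (log2 difference -0.38, limma adjusted p = 0.0830). Kat6b, which encodes MORF, read 70.4, 72.4 and 72.4 in siSpt6, against 94.9, 79.5 and 91.8 in siControl (log2 difference -0.30, limma adjusted p = 0.140). Hat1, whose enzyme acetylates newly made histone H4 before it is deposited, read 1062, 1234 and 949 in siSpt6, against 1609, 1401 and 1242 in siControl (log2 difference -0.39, limma adjusted p = 0.145). In all 3 genes each siSpt6 value was under each siControl value, but by less than the fit asks of 3 arrays a group. For Hat1 the log2 difference depended on the scaling and came to -0.12 after quantile normalization. Kat6a, which encodes MOZ, lay the other way, at 47.3, 37.6 and 42.2 in siSpt6, against 29.7, 36.7 and 35.2 in siControl (log2 difference 0.32, limma adjusted p = 0.189).

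Of the p300 and CBP pair, coactivators that acetylate histones at enhancers, Ep300 was uneven between arrays. It read 65.0, 26.2 and 20.7 in siSpt6, against 16.2, 18.9 and 18.1 in siControl, so 1 siSpt6 array stood far above the other two. Its log2 difference was 0.89 (95% interval -0.06 to 1.84, limma adjusted p = 0.189), and without siSpt6 replicate 1 it was 0.40. Crebbp averaged 37.4 ± 3.03 in siSpt6 and 34.8 ± 4.21 in siControl (log2 difference 0.11, limma adjusted p = 0.647). Kat2b, the PCAF paralogue of Kat2a, averaged 30.1 ± 5.34 in siSpt6 and 22.7 ± 4.15 in siControl (log2 difference 0.41, limma adjusted p = 0.205), with overlapping groups.

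The other 5 genes of this class and its complexes had groups that overlapped. Kat8, which encodes MOF, averaged 150.0 ± 6.79 in siSpt6 and 156 ± 3.62 in siControl, one of the tightest comparisons in the set (log2 difference -0.06, 95% interval -0.31 to 0.20). Kat5, which encodes TIP60, averaged 47.0 ± 13.8 in siSpt6 and 41.8 ± 14.7 in siControl (log2 difference 0.20, 95% interval -0.59 to 0.99). The nuclear receptor coactivators Ncoa1 and Ncoa3 differed by 0.30 and 0.05 on the log2 scale, and Ncoa1 by 0.064 without siControl replicate 1. Trrap, the scaffold that SAGA and the TIP60 complex share, averaged 80.8 ± 16.2 in siSpt6 and 74.9 ± 3.70 in siControl (log2 difference 0.09, 95% interval -0.32 to 0.50). Over the 12 acetyltransferases the median log2 difference was 0.08, with 7 positive and 5 negative differences. With 1 array left out that median ran from -0.065 (without siControl replicate 1) to 0.183 (without siSpt6 replicate 1), and it was also negative without siSpt6 replicate 3.

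**Figure D2:**
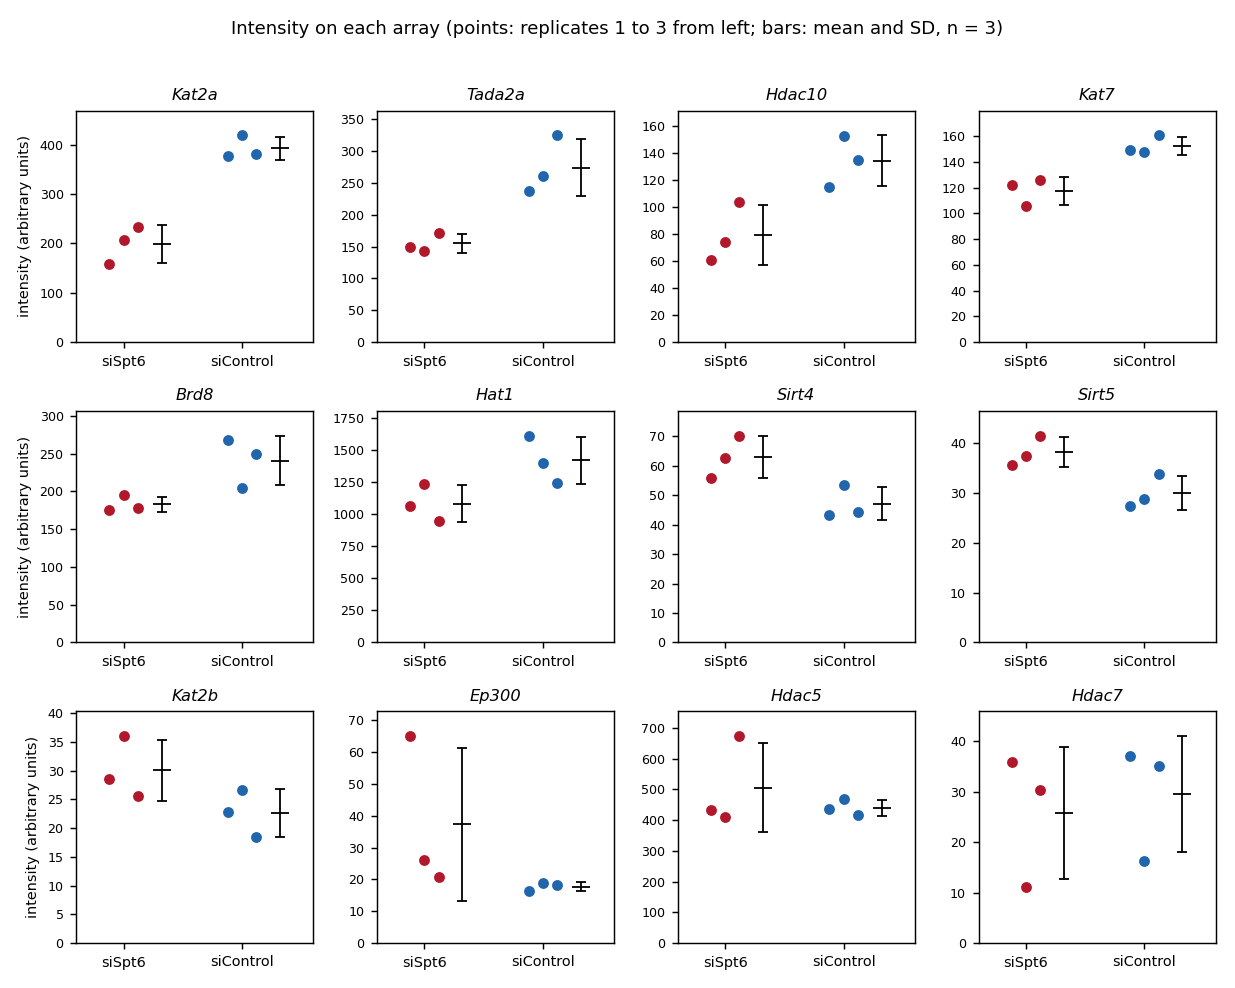
Intensity (arbitrary units, axis from 0) of 12 members on each array, with siSpt6 at left and siControl at right; points are replicates 1 to 3 from left and bars the mean and SD. Kat2a and Tada2a have groups that are well apart, Ep300 has 1 high siSpt6 array (65.0), and Hdac7 has a low array of replicate number 2 in both groups (11.1 and 16.2).

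By limma 0 of 9 HDACs passed the test, against 16.3% of all tested probes. At an unadjusted p under 0.05 there was 1, against 30.3% of probes, and that gene, Hdac10, came nearest. Hdac10, a class IIb enzyme that deacetylates polyamines, read 60.5, 74.4 and 104 in siSpt6, against 115, 153 and 135 in siControl. The groups did not overlap, although the highest siSpt6 value was close to the lowest siControl value. Its means were 79.6 ± 22.2 in siSpt6 and 134 ± 18.8 in siControl, a ratio of 0.582, with a log2 difference of -0.78 (SE 0.22, limma adjusted p = 0.0552). Over 15 alternatives, bright probes alone aside, its limma adjusted p ran from 0.0128 to 0.142, and 6 of them passed the threshold. Of the runs with 1 array left out, only that without siSpt6 replicate 3 passed it (log2 difference -0.99, limma adjusted p = 0.0253).

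Among class I enzymes, Hdac3, the catalytic subunit of NCoR complexes, read 338, 259 and 309.9 in siSpt6, against 370, 359 and 352 in siControl (log2 difference -0.26, limma adjusted p = 0.254). Its groups did not overlap, and with 1 array left out its log2 difference ran from -0.34 to -0.15. Hdac2, which serves SIN3, NuRD and CoREST, averaged 595 ± 134 in siSpt6 and 654 ± 143 in siControl (log2 difference -0.14, 95% interval -0.65 to 0.38). Its overlapping groups leave its direction unsettled.

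The class IIa genes Hdac4, Hdac5, Hdac7 and Hdac9, repressors of MEF2 targets in other tissues, showed no call, with log2 differences of -0.24, 0.17, -0.27 and 0.03. Hdac7 was the noisiest member, at 35.8, 11.1 and 30.4 in siSpt6, against 37.1, 16.2 and 35.1 in siControl. Its lowest value was on the array of replicate number 2 in both groups, and its 95% interval, -1.48 to 0.94, was the widest of all. Hdac5 read 434, 411 and 673 in siSpt6, against 435, 468 and 417 in siControl, so 1 siSpt6 array stood above the other five. Hdac6, a cytoplasmic tubulin deacetylase, and Hdac11, the class IV enzyme, differed by 0.13 and 0.28 on the log2 scale, both with overlapping groups. Hdac4, Hdac9 and Hdac11 were dim, with means of 12.3, 14.02 and 6.26 in siSpt6 and 14.5, 13.5 and 5.17 in siControl, and no detection limit is known for such values. The 9 measured HDACs had a median log2 difference of -0.14, which was 0.0046 after quantile normalization, 0.029 without siControl replicate 2 and -0.28 without siSpt6 replicate 3.

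The sirtuins gave 0 calls among 7 genes by limma, against 16.3% of all tested probes. At an unadjusted p under 0.05 there were 3, against 30.3% of probes. This class included the members nearest to a rise. Sirt4 and Sirt5, both mitochondrial, were those: Sirt4 read 56.0, 62.8 and 70.2 in siSpt6, against 43.3, 53.5 and 44.4 in siControl (log2 difference 0.42, 95% interval 0.08 to 0.76, limma adjusted p = 0.0991). Sirt5, which removes succinyl and malonyl groups, read 35.6, 37.3 and 41.4 in siSpt6, against 27.4, 28.7 and 33.8 in siControl (log2 difference 0.35, limma adjusted p = 0.129). Neither gene's groups overlapped. Both passed the threshold in the fit of bright probes alone (limma adjusted p = 0.0319 and 0.0474), where 13.5% of probes were called higher. Under the other 15 alternatives neither passed it. Sirt6, a chromatin-bound deacetylase, read 26.3, 22.9 and 25.9 in siSpt6, against 30.6, 31.5 and 29.1 in siControl (log2 difference -0.28, limma adjusted p = 0.153). Sirt3, the main mitochondrial deacetylase, read 137, 132 and 148 in siSpt6, against 164, 152 and 166 in siControl (log2 difference -0.21, limma adjusted p = 0.262).

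Sirt1, the nuclear enzyme that deacetylates p53 among other targets, averaged 186 ± 46.4 in siSpt6 and 184 ± 10.8 in siControl (log2 difference -0.02, 95% interval -0.49 to 0.46). The cytoplasmic Sirt2 and the nucleolar Sirt7 differed by 0.16 and 0.03 on the log2 scale. Sirt7 was the more closely bounded, with a 95% interval of -0.25 to 0.30. The median over the sirtuins was 0.03.

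Of the corepressor scaffolds none passed the test, and all 4 had overlapping groups. Sin3a and Sin3b, the platforms of the SIN3 complexes, had log2 differences of -0.15 and -0.20, and Sin3b averaged 1410 ± 127 in siSpt6 and 1615 ± 136 in siControl. The direction of Sin3b and Ncor1 turned after quantile normalization (0.08 and 0.07) and cyclic loess. Without siControl replicate 3 the difference of Sin3a was -0.0093, and without siSpt6 replicate 3 it was -0.31. Ncor1, the scaffold that binds HDAC3, averaged 415 ± 46.4 in siSpt6 and 443 ± 64.1 in siControl (log2 difference -0.09). Rcor1, the scaffold of CoREST, averaged 25.1 ± 2.29 in siSpt6 and 21.2 ± 2.49 in siControl (log2 difference 0.25). By limma 0 of these 4 had an unadjusted p under 0.05, against 30.3% of all tested probes, of which 16.3% were called.

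The bromodomain genes likewise gave 0 calls by limma, with 1 of 5 at an unadjusted p under 0.05, against 16.3% and 30.3% of all tested probes. The gene at that mark was Brd8, whose product belongs to the TIP60 complex, at 176, 195 and 179 in siSpt6, against 268, 204 and 249 in siControl (log2 difference -0.39, limma adjusted p = 0.115). Brd3 and Brd2, BET proteins that bind acetylated chromatin at active genes, lay on opposite sides of 0. Brd3 read 380.4, 320 and 387 in siSpt6, against 443, 501 and 392 in siControl (log2 difference -0.30, limma adjusted p = 0.228). Brd2 averaged 1179 ± 165 in siSpt6 and 1032 ± 114 in siControl (log2 difference 0.19, limma adjusted p = 0.460). Brd7 and Brd9, subunits of PBAF and of non-canonical BAF remodellers, differed by -0.01 and -0.02 on the log2 scale, with 95% intervals of -0.34 to 0.32 and -0.33 to 0.28. After quantile normalization the log2 difference was 0.21 for Brd7, 0.43 for Brd2 and -0.13 for Brd3.

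Of the 39 members, 34 had a 95% interval that lay inside a 2-fold change in either direction, and 17 had one inside a 1.5-fold change. The 5 intervals that reached past a 2-fold change were those of Kat2a, Tada2a, Hdac10, Ep300 and Hdac7. Reaching past it does not mean a wide interval. That of Kat2a, -1.39 to -0.60, was narrower than that of Kat5, -0.59 to 0.99, which lay inside. An interval of this kind bounds the size of a difference for 1 gene and is not adjusted over genes. Groups did not overlap for 15 members (38.5%), 4 higher and 11 lower in siSpt6, against 37.3% of all probes with 6 values (16.9% higher and 20.4% lower). Members thus separated the groups about as often as probes at large, while a smaller share was called. No test of either share was made.

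Related members were compared by the ratio of their probes within each array, which removes the scaling of the array. Of 14 pairs with both genes measured, 4 had siSpt6 ratios that did not overlap the siControl ratios; with 3 arrays a group the smallest exact permutation p is 0.1, and the lowest value adjusted over the 14 pairs was 0.35. Leaving out an array can only keep or add such pairs, so the count of 8 without siSpt6 replicate 3 and of 7 without siControl replicate 2 says nothing about its stability. For Kat2a over Kat2b the log2 ratio was 2.47, 2.52 and 3.19 in siSpt6, against 4.05, 3.97 and 4.37 in siControl, a difference of -1.41 (exact permutation p = 0.1). GCN5 and PCAF occupy the same place in SAGA and ATAC, and the ratio of their transcripts was lower on each siSpt6 array. For Hdac6 over Hdac10 the difference was 0.91, for Kat6a over Kat6b 0.63 and for Brd2 over Brd3 0.49 (exact permutation p = 0.1 each). The other 10 pairs overlapped, among them Sin3a over Sin3b (0.05) and Brd7 over Brd9 (0.02).

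**Figure D3:**
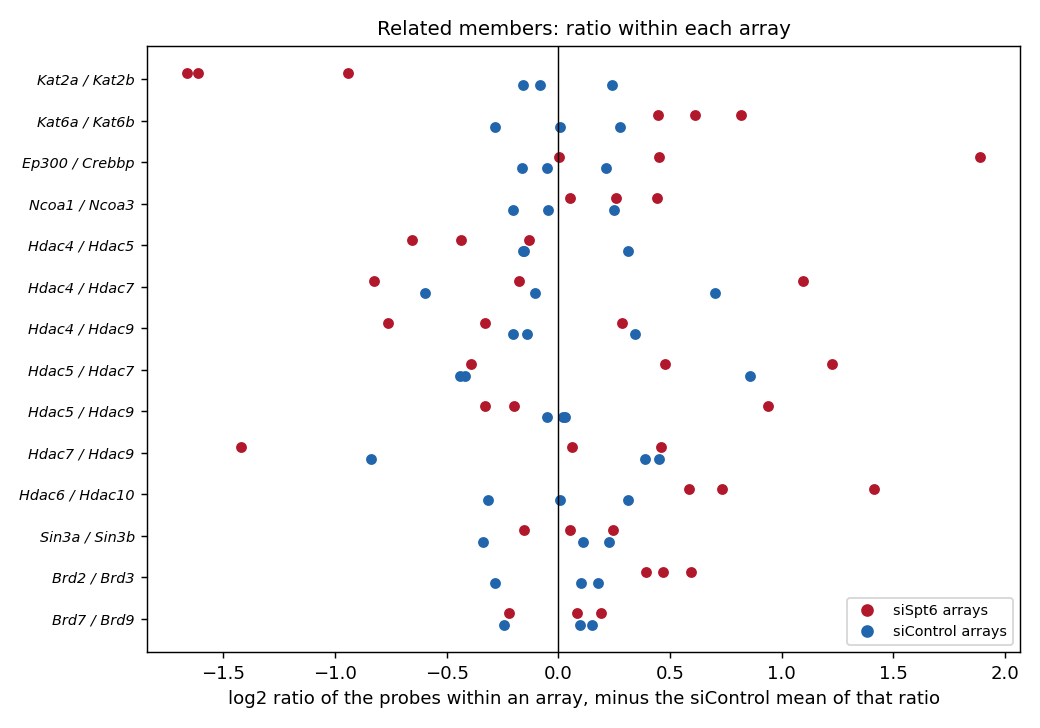
Log2 ratio of the probes of 2 related members on each array, less the siControl mean of that ratio; each point is 1 array, siSpt6 drawn above siControl. The groups are apart for Kat2a over Kat2b (difference -1.41), Kat6a over Kat6b (0.63), Hdac6 over Hdac10 (0.91) and Brd2 over Brd3 (0.49), and overlap for the other 10 pairs.

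Further genes of the same machinery, 100 measured of 113 listed, had 7 rises and 14 falls. These shares stand beside 8.35% higher and 15% lower among probes at or above the median level, where 84 of the 100 lay. With 1 array left out there were 4 to 7 rises, fewest without siControl replicate 1 or 2, and 7 to 12 falls, fewest without siSpt6 replicate 2 (7), siControl replicate 1 or 2 (8 each) and siSpt6 replicate 3 (9). In those runs the shares over all tested probes were smaller too. They were 5.02% to 5.39% higher, against 7.43% with all arrays. Lower calls were 4.94% (without siSpt6 replicate 2) to 6.76% (without siSpt6 replicate 3), against 8.9% with all arrays. In the SAGA and ATAC list, Taf5l, a SAGA core subunit, was the 1 call among 16 genes. It averaged 137 ± 20.1 in siSpt6 and 211 ± 13.96 in siControl (log2 difference -0.63, limma adjusted p = 0.0304), a call lost without any 1 of 5 arrays, all but siSpt6 replicate 1 (limma adjusted p up to 0.0912). Of genes specific to ATAC, named after their values were seen, Yeats2 differed by -0.36 and Mbip by 0.38 on the log2 scale, with limma adjusted p of 0.122 and 0.102, and Zzz3 by -0.02. Tada1, a SAGA subunit also named after its value was seen, differed by -0.45 (limma adjusted p = 0.0550). The other 15 genes of this list were not called.

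The list of MYST complex subunits had 2 rises and 6 falls among 26 genes. It counted Ing1 and Ing2, whose products are known mainly from SIN3 complexes. Of those 26, 23 lay at or above the median level, where 8.35% of probes were higher and 15% lower. Ruvbl1 and Ruvbl2, the paired AAA ATPases of the TIP60 complex and of several other assemblies, fell to 841 ± 27.8 and 497 ± 124 in siSpt6, against 1507 ± 16.3 and 1054 ± 80.6 in siControl (log2 differences -0.84 and -1.11, limma adjusted p = 0.00370 and 0.0100). Meaf6, Ing1, Jade2 and Kansl2, named after their values were seen, were the other falls, with log2 differences of -0.48, -0.54, -0.50 and -0.59. Ing4, a reader in the HBO1 complex, rose to 460.5 ± 33.3 in siSpt6, against 292 ± 8.91 in siControl (log2 difference 0.66, limma adjusted p = 0.0110), and Brpf3, a scaffold for HBO1, rose by 0.75 on the log2 scale (limma adjusted p = 0.0192). The Brpf3 call was lost without siControl replicate 1 or 2 (limma adjusted p = 0.0521 and 0.0621), and that of Ing1 without siSpt6 replicate 2 or siControl replicate 2. Meaf6 and Jade2 lost theirs whichever array was left out (highest limma adjusted p 0.0894 and 0.114) and Kansl2 without any but siControl replicate 3 (up to 0.0910). Meaf6 and Ing1 were also not called after quantile normalization (limma adjusted p = 0.0543 and 0.0914) or cyclic loess (0.0524 and 0.0765).

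The corepressor lists were split, with 4 rises and 4 falls among 24 genes, the fall of Ing1 not counted here. Of those 24, 23 lay at or above the median level, where 8.35% of probes were higher and 15% lower. Rcor2, a CoREST scaffold, fell to 50.3 ± 11.2 in siSpt6, against 123 ± 8.56 in siControl, 2.48-fold lower (log2 difference -1.31, limma adjusted p = 0.00465), while its paralogue Rcor1, given above, was not called. Rbbp7, a histone-binding subunit, fell by 0.75 on the log2 scale, a call lost under quantile normalization and cyclic loess (log2 difference -0.42 in each, limma adjusted p = 0.0680 and 0.0503). Sap18, a SIN3 subunit, rose to 78.7 ± 11.2 in siSpt6, against 42.2 ± 2.45 in siControl (log2 difference 0.89, limma adjusted p = 0.00846). Chd3, an ATPase of NuRD, rose to 1081 ± 113 in siSpt6, against 627 ± 40.6 in siControl (log2 difference 0.78, limma adjusted p = 0.00893). These values are from 1 of the 2 probes named for Chd3. The rest, named after their values were seen, were rises of Arid4b (0.84) and Arid4a (0.61), SIN3-associated proteins, and falls of the NuRD subunits Mta1 (-0.66) and Mbd3 (-0.50). Arid4a lost its call when any siControl array was left out (highest limma adjusted p 0.0706) and Mbd3 whichever array was left out (0.0894) and after quantile normalization (0.121) or cyclic loess (0.0895).

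Other genes with a bromodomain, a YEATS domain or a DPF domain had 1 rise and 1 fall among 24 genes, and neither called gene is known mainly as a reader of acetylated lysine. Trim28, the cofactor of zinc finger repressors, fell to 601 ± 81.5 in siSpt6, against 1034 ± 107 in siControl (log2 difference -0.79, limma adjusted p = 0.0151). Zmynd11, known as a reader of trimethylated lysine in the histone variant H3.3, rose to 298 ± 38.5 in siSpt6, against 185 ± 11.7 in siControl (log2 difference 0.68, limma adjusted p = 0.0183), a call that was lost when siSpt6 replicate 2 (limma adjusted p = 0.0563), siControl replicate 1 (0.0624) or siControl replicate 2 (0.0523) was left out. Of 10 genes that supply acetyl-CoA or NAD, 2 fell and 0 rose. The counts of this list and the one before stand beside 7.43% higher and 8.9% lower among all tested probes. Acly, which makes acetyl-CoA in the nucleus and cytosol, fell to 245 ± 28.1 in siSpt6, against 473 ± 51.4 in siControl (log2 difference -0.95, limma adjusted p = 0.00727). Acss2, another such enzyme, named after its value was seen, differed by 0.04 on the log2 scale (95% interval -0.29 to 0.37, limma adjusted p = 0.894). Slc25a1, which exports the citrate that Acly cleaves, fell by 0.68 on the log2 scale (limma adjusted p = 0.0155), a call that was lost when siSpt6 replicate 2 (limma adjusted p = 0.0520) or siControl replicate 1 (0.0518) was left out.

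**Figure D4:**
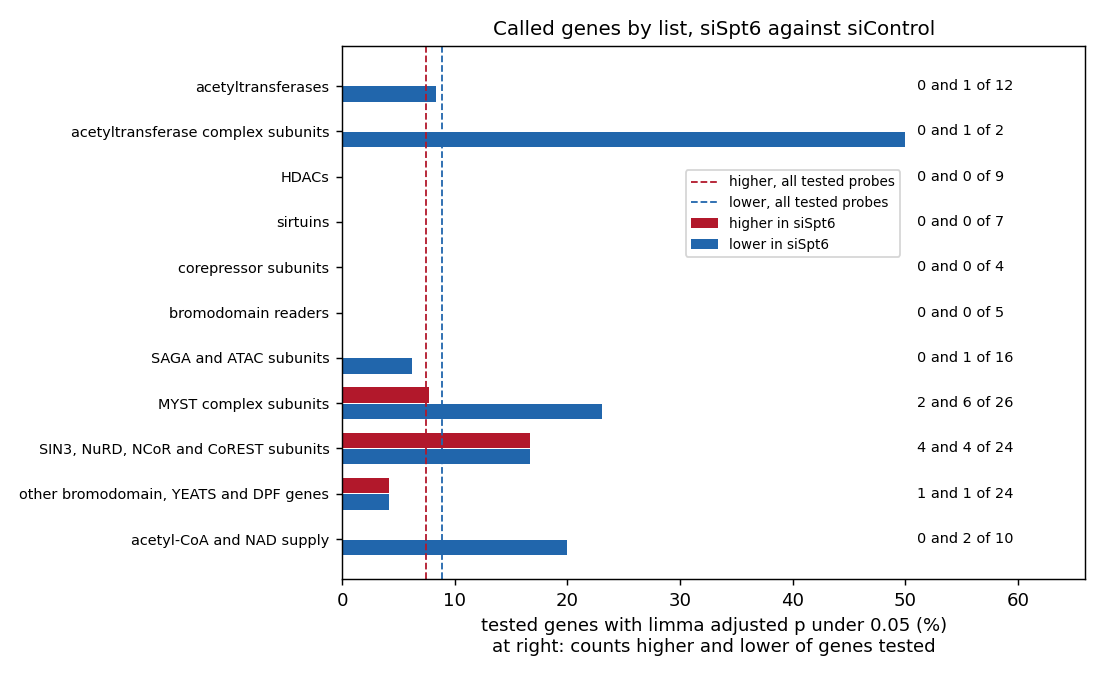
Percentage of tested genes in each list with a limma adjusted p under 0.05, higher (red) or lower (blue) in siSpt6, with dashed lines at the percentages of all tested probes (7.43 and 8.9). The HDACs, sirtuins, corepressor subunits and bromodomain readers have no bar, and the 50% of the acetyltransferase complex subunits is 1 of 2 genes.

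Each array gave a value for 21526 to 22372 of 23473 probes, and the array medians were 29.97 to 29.998. Pearson's r across probes was 0.988 to 0.991 within a group and 0.975 to 0.981 between groups. The probe of Supt6, the siRNA's target, read 25.1, 21.8 and 28.1 in siSpt6, against 33.1, 32.1 and 32.1 in siControl (log2 difference -0.38, limma adjusted p = 0.0973). The groups did not overlap, but the knockdown was not called at the threshold, which it passed after cyclic loess alone of the scalings tried (limma adjusted p = 0.0498). Of the 3525 called probes 1603 were higher and 1922 lower, a split that became 1853 higher and 1379 lower after quantile normalization. All 8 measured B cell markers lay at or above the median level, with Cd79b higher and Cd22 lower in siSpt6, while all 5 T cell markers and 4 of 5 myeloid markers lay below it, and 0 of these 10 changed by limma (1 at an unadjusted p under 0.05).

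**Figure D5:**
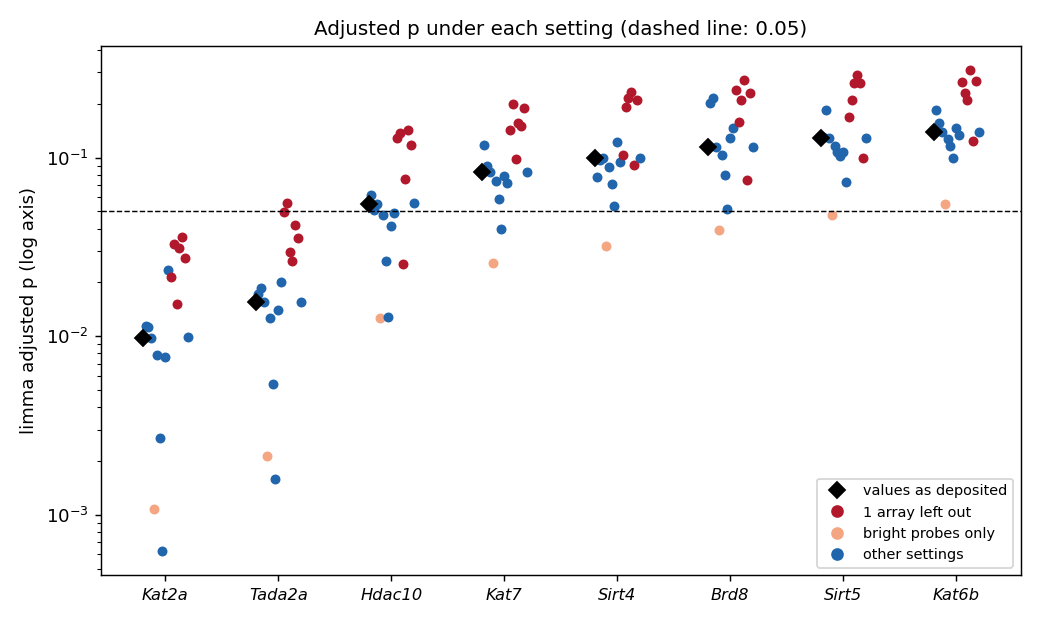
Limma adjusted p (log axis) of 8 members with the values as deposited (black) and under each alternative; the dashed line is 0.05. Kat2a stays under the line throughout, Tada2a crosses it when siSpt6 replicate 2 is left out (0.0559), Hdac10 lies on both sides, and the other 5 lie above it with the values as deposited.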

How the data were processed

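Total RNA of 6 samples was amplified to amino allyl RNA, coupled to Cy5 and read on 1-colour arrays, per the labels' protocols. The authors deposited 1 intensity per probe and array, on a linear scale; their background correction and normalization are not stated in the labels or file. Array medians were nearly equal, so values were log2-transformed as they stood, without a pseudocount; blanks (4.69% to 8.29% of probes) were missing. The number of arrays, 3 a group, limits the precision. Probe names came from the platform's annotation, updated with RefSeq symbols of GRCm38.p6 (6842 of 23473 probes stayed unnamed); each gene took its brightest tested probe. Probes with at least 2 values in each group (21584) were fitted with limma 3.58.1 in R 4.3.3 (lmFit and eBayes, group as the only term), two-sided, with Benjamini-Hochberg adjustment over all of them. The fit was tested on simulated data.

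Members and lists were chosen with earlier results of these data known. All members are named; from other lists, the 2 rises and 2 falls of lowest adjusted p at most, and others where the text says that their values had been seen. Alternatives were cyclic loess, quantile normalization, centring on medians, only bright or only complete probes, a pseudocount, array weights, trended and robust eBayes, the replicate block, the mean of a gene's probes and each array left out. Those for the other lists, Supt6, Acaca and the paralogue pairs were added after seeing the data.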

Additional observations from a re-analysis of the deposited data

How the results depend on the processing

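The members' calls rest on 3 arrays a group, and no detection limit is known for the dim probes. Kat2a kept its call under all 16 alternatives. Among bright probes alone (31 members) 2 members were higher and 5 lower, with 36.8% of those probes called, and with trend and robust options 4 were lower, with 21.2% of all probes called. With 1 array left out, 2099 to 2522 probes were called and 1 to 3 members were lower, while other acetylation genes had 4 to 7 rises and 7 to 12 falls. The count of paralogue pairs that did not overlap was 4 to 8, and by construction it cannot fall when an array is left out. The HDAC median ran from -0.28 to 0.029 and the acetyltransferase median from -0.065 to 0.183. The sirtuin median was 0.10 after quantile normalization, 0.11 after cyclic loess and -0.031 to 0.199 with 1 array left out. The median log2 difference of corepressor subunits was 0.073 after quantile normalization and 0.044 after cyclic loess. No called member turned its direction. Uncalled members that turned after quantile normalization were Kat8 (0.0054), Hdac2 (0.060), Sirt1 (0.054), Sin3b (0.078), Ncor1 (0.069), Brd7 (0.21) and Brd9 (0.030), and after cyclic loess Hdac2 (0.032), Hdac9 (-0.049), Sirt1 (0.053), Sin3b (0.037), Ncor1 (0.051), Brd7 (0.19) and Brd9 (0.020). With 1 array left out, log2 differences spanned 0 for Kat5 (-0.14 to 0.40), Ncoa3 (-0.22 to 0.20), Trrap (-0.033 to 0.26), Hdac2 (-0.31 to 0.029), Hdac5 (-0.057 to 0.30), Hdac7 (-0.66 to 0.26), Hdac9 (-0.11 to 0.21), Sirt1 (-0.17 to 0.20), Sirt7 (-0.031 to 0.086), Ncor1 (-0.21 to 0.0012), Brd7 (-0.095 to 0.092) and Brd9 (-0.079 to 0.052). The causes were not tested. Samples sharing a replicate number correlated by 0.351, 0.0759 and 0.262 in their deviations from the group means. Samples with different numbers correlated by -0.292 to 0.0159, so each sample correlated best with its own number. The labels do not state a pairing by number, and the main fit left the number out. The replicate block adds it as a term. With the replicate block 3594 probes were called and 3 members were lower, Hdac10 being the third.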
